A study of Arabidopsis thaliana with 6 samples.

Results

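The 10 genes described here mark the phloem of Arabidopsis thaliana, the vein tissue that exports sugar from the leaf. They are a fixed list of loci, chosen with earlier results of these data known. All 10 are among the 33602 gene models of each count table. Companion cell and loading genes are SUC2 (AT1G22710), SWEET11 (AT3G48740), SWEET12 (AT5G23660) and PP2-A1 (AT4G19840). Sieve element genes are SEOR1 (AT3G01680), SEOR2 (AT3G01670), NAC045 (AT3G03200), NAC086 (AT5G17260) and CALS7 (AT1G06490), and APL (AT1G79430) is a regulator of phloem identity. Total RNA depleted of rRNA was sequenced from 3 kinds of leaf piece, with 2 libraries each. FLV border is the white margin of young rosette leaves of the flv/dot4 mutant, stock salk_139995, a single T-DNA line. WT border is the green margin of Col-0 wild type, and WT centre is the middle of the Col-0 leaf. All plants were at Boyes stage 1.13, and grew on soil at 18 to 21 °C with at most 90 µE of light. The labels do not say whether the libraries of a group came from separate plants, so each p-value measures the spread between these libraries, which may be technical.

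In Arabidopsis, sucrose leaves phloem parenchyma cells through SWEET11 and SWEET12 and is taken up by the proton symporter SUC2 into the companion cell and sieve element complex. The sieve element is the conducting cell. It loses its nucleus as it matures, under the transcription factors NAC045 and NAC086, which act downstream of APL. SEOR1 and SEOR2 form the filaments of mature sieve elements, CALS7 is the callose synthase of sieve pores, and PP2-A1 is a phloem lectin made in companion cells.

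The libraries held 20448315 to 33214552 counts, and 70.9 to 88.9% of their reads were mapped, with library 1 of WT centre lowest on both. TMM scaling factors ran from 0.439 and 0.551 for the WT centre to 1.71 and 1.73 for the FLV border. DOT4, the gene disrupted in the line, had 502 and 616 counts in the libraries labelled FLV border, 18 and 52 in the WT border, and 5 and 6 in the WT centre. These counts go against a loss of the transcript, but they carry no position within the gene, and reads beside an insertion do not check it. FLV border therefore means the libraries so labelled throughout. In all 6 libraries the mesophyll marker RBCS1A had at least 1557 CPM (counts per 1000000 of the scaled library) and CESA4, a xylem marker, at least 2.31 CPM, while the epidermis marker PDF1 was near 0 in the WT centre, with 0.0888 and 0.481 CPM.

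In the TAIR10.1 reference SEOR2 and SEOR1 are tandem genes on the + strand of chromosome 3, at 247192 to 250472 and 251868 to 255513, with 7 and 9 exons and 1395 bases between them. SUC2 is on the - strand of chromosome 1 at 8030587 to 8033156 with 4 exons, and SWEET11 on the - strand of chromosome 3 at 18052466 to 18054832 with 6 exons. None of the 10 deposited model lengths equals that of a reference transcript. The reference transcripts of PP2-A1 and NAC045 overlap a gene on the opposite strand (AT4G19830 and AT3G03190), and the use of strand in counting is not stated. The nearest copies of SEOR1 and SEOR2 were each other, with 70% identity over 160 bases. SWEET11 and SWEET12 shared 91.6% over 119 bases and NAC086 shared 87% with NAC045 over 284 bases, so some reads of these pairs could be assigned to either gene.

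The 250 bases before the annotated starts of 4 genes are shown because the tandem SEOR pair had the clearest difference between leaf pieces, while SUC2 and SWEET11 had other patterns. They are RefSeq TAIR10.1 sequences, written 5′ to 3′ on the strand of the gene. Capitals mark AAAG on either strand (CTTT where it is on the other strand), the core letters bound by DOF transcription factors, a family with members active in phloem. SEOR2 is at chr3:246942-247191 (+), SEOR1 at chr3:251618-251867 (+), SUC2 at chr1:8033157-8033406 (-) and SWEET11 at chr3:18054833-18055082 (-).
SEOR2: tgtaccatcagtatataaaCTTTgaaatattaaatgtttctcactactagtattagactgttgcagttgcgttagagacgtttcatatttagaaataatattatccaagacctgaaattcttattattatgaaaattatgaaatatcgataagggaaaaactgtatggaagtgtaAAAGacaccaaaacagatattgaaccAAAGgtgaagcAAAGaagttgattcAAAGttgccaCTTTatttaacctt
SEOR1: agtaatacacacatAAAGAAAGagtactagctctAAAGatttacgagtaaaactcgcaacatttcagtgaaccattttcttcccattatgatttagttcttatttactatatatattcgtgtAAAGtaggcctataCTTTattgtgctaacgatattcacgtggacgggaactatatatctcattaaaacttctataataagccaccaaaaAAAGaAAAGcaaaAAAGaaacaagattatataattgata
SUC2: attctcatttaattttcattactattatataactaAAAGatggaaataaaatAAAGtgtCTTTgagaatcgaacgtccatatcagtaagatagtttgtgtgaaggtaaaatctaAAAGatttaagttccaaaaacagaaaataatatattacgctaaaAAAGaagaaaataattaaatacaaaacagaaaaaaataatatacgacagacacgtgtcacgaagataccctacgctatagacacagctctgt
SWEET11: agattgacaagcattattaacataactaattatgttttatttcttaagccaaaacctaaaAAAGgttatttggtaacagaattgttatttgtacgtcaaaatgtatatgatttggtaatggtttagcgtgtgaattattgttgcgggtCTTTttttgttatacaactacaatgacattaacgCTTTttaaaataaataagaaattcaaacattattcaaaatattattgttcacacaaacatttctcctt

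SEOR2 held 6 matches, SEOR1 8, SUC2 5 and SWEET11 3, counting overlapping ones. Of 27443 protein-coding nuclear genes, 98% had at least 1 match in such a window, with a median of 4 and quartiles of 3 and 5. At least as many matches as in SEOR1 were found in 7.14% of the windows, as in SEOR2 in 24.3%, as in SUC2 in 39.4% and as in SWEET11 in 76.3%. Of the genes not shown, SWEET12 held the most of all 10, with 9 (3.21% of windows hold as many), APL held 7, NAC086 6, NAC045 4, and CALS7 and PP2-A1 2 each (90.5%). The number of matches thus did not divide the companion cell and loading genes from the sieve element genes. The letters GNATATNC, known as the site of PHR1 in the MYB coiled-coil family to which APL belongs, were in 5.46% of all windows and in 0 of the windows of the 10 genes.

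Per kilobase, SUC2 was the highest of the 10 genes in both kinds of border. It averaged 37.2 ± 0.343 CPM per kb in the FLV border and 67.7 ± 32.8 in the WT border (SD, n = 2 each). The following 4 in the WT border, SEOR1, PP2-A1, SWEET11 and SEOR2, averaged 16.5, 14.9, 11.2 and 9.81 CPM per kb, and neighbours in this order overlapped between libraries. In FLV border the order after SUC2 was PP2-A1, SEOR1, SEOR2, APL and SWEET11, from 13.7 to 3.75 CPM per kb, where PP2-A1 overlapped SEOR1 and APL overlapped SWEET11. In WT centre SWEET11, SUC2 and PP2-A1 led with 66.4, 64.5 and 39.7 CPM per kb, and SWEET11 and SUC2 overlapped, as did SUC2 and PP2-A1. CALS7, NAC045 and NAC086 averaged at most 0.554 CPM per kb in each group.

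**Figure D1:**
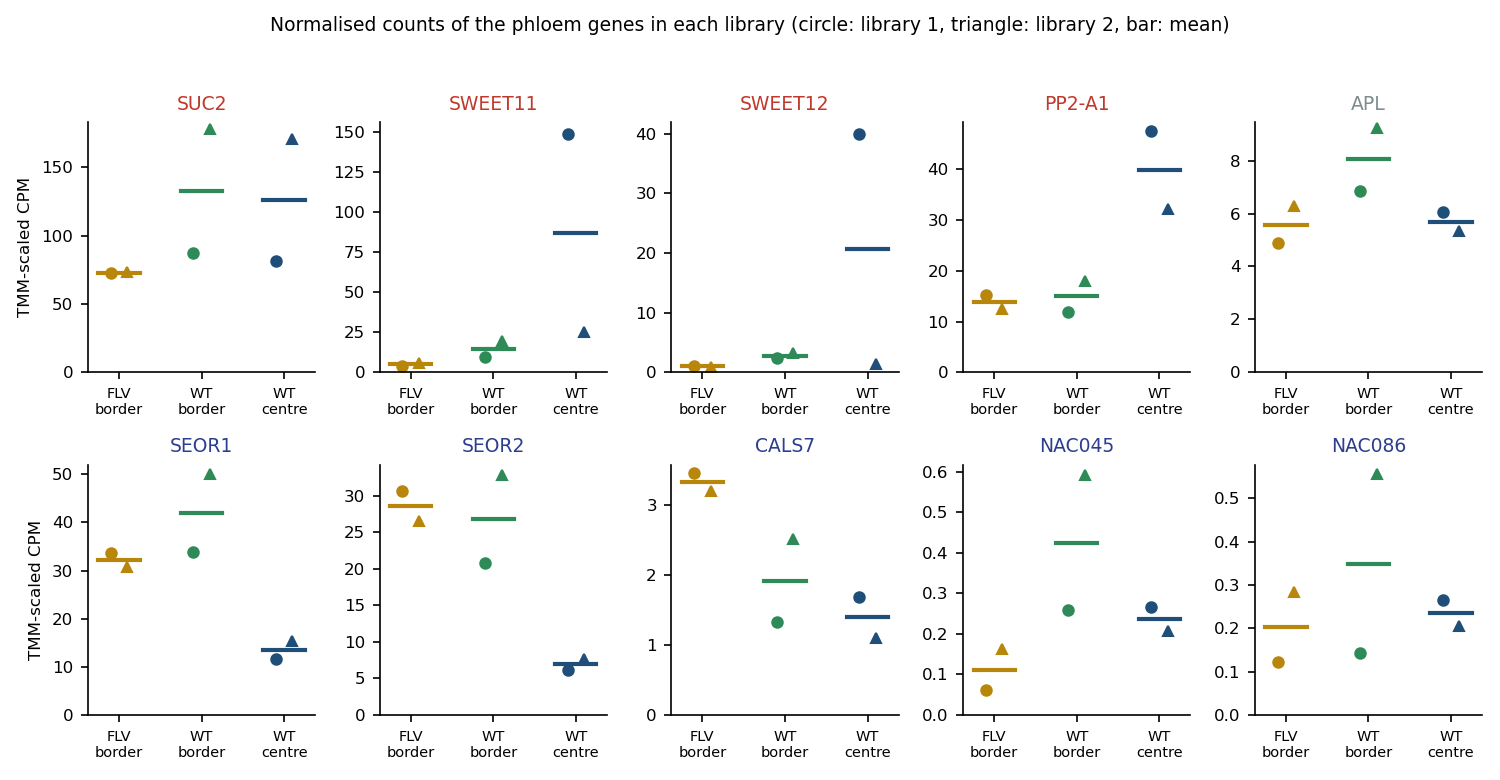
Normalised counts (TMM-scaled CPM, linear axes from 0) of the 10 genes in each library of the FLV border, the WT border and the WT centre, with the mean as a bar; names are red for companion cell and loading genes, blue for sieve element genes and grey for APL. SEOR1 and SEOR2 are low in both WT centre libraries, while SWEET11 and SWEET12 are high in library 1 of WT centre, at 149 and 40.0 CPM, and far lower in library 2.

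The first comparison asks how the phloem genes of the white margin labelled FLV differ from those of the green margin. No member was called in FLV border against WT border, where edgeR called 0.0595% of all genes, and DESeq2 and limma-voom also called 0 members. The loading genes SUC2, SWEET11 and SWEET12, and also SEOR1 and APL, had lower values in both FLV border libraries than in both WT border libraries. The callose synthase gene CALS7 had higher ones. Of the 9 members tested, 5 lay below and 1 above without overlap, against 18.7% and 19.3% of all genes, and 0 had an unadjusted p under 0.05, against 5.53% of all genes. The median log2 fold change was -1.18 for the 4 companion cell and loading genes, with PP2-A1 at -0.11. The median was -0.15 for the 4 tested sieve element genes and 0.02 for all genes. NAC045 did not pass the filter on low counts.

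SUC2, which takes up sucrose together with protons, had 72.3 and 73.3 CPM in the FLV border, against 87.1 and 178 CPM in the WT border. The groups did not overlap, but library 2 of WT border was far above library 1. The log2 fold change was -0.86 ± 0.56 (edgeR, adjusted p = 0.9999), and -0.28 without library 2 of WT border. SWEET11, a sucrose exporter of phloem parenchyma, had 3.86 and 5.96 CPM in the FLV border, against 9.69 and 19.6 CPM in the WT border. Its log2 fold change was -1.57 ± 0.77 (edgeR, adjusted p = 0.951), a linear fold of 0.336, and both FLV border libraries were the lower ones. SWEET12, its close paralogue, rested on 53 and 44 counts in the FLV border and 83 and 92 in the WT border. That is 1.08 and 0.890 CPM in the FLV border, against 2.38 and 3.20 CPM in the WT border, with a log2 fold change of -1.50 ± 1.1 (edgeR, adjusted p = 0.9999). PP2-A1 had 15.2 and 12.4 CPM in the FLV border, against 11.9 and 18 CPM in the WT border, and the groups overlapped.

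APL, the MYB coiled-coil factor needed for phloem identity, had 4.88 and 6.27 CPM in the FLV border, against 6.85 and 9.24 CPM in the WT border. Both FLV border libraries were the lower ones, and the log2 fold change was -0.53 ± 0.45 (edgeR, adjusted p = 0.9999). Its downstream factor NAC045 had 3 and 8 counts in the FLV border, against 9 and 17 in the WT border. NAC086 had 6 and 14 counts in the FLV border, against 5 and 16 in the WT border. At this depth neither factor allows a difference to be read.

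The structural genes of the sieve element did not share 1 direction. SEOR1 had 33.6 and 30.8 CPM in the FLV border, against 33.9 and 50.0 CPM in the WT border (log2 fold change -0.38 ± 0.43). SEOR2 had 30.6 and 26.5 CPM in the FLV border, against 20.8 and 32.9 CPM in the WT border (0.09 ± 0.43), so that the groups overlapped. CALS7 had 3.45 and 3.19 CPM in the FLV border, against 1.32 and 2.50 CPM in the WT border. Both FLV border libraries were the higher ones, with a log2 fold change of 0.80 ± 0.60 (edgeR, adjusted p = 0.9999), which was 0.41 without library 1 of WT border.

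**Figure D2:**
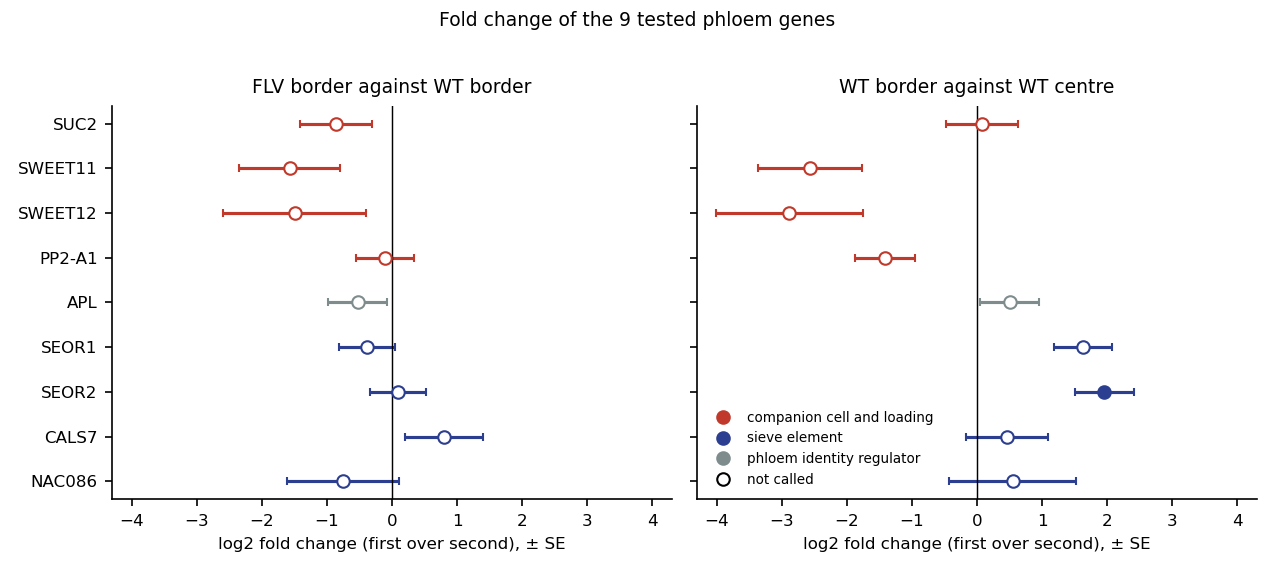
Log2 fold change of the 9 tested genes with the standard error of the edgeR model as bars, for FLV border against WT border (left) and WT border against WT centre (right); positive values are higher in the group named first, and a filled point is called. SEOR2 at 1.95 on the right is the single filled point.

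With edgeR the other phloem genes and families gave 0 calls in FLV border against WT border. DESeq2 called ENODL9 (adjusted p = 0.00842) and AAP3 (adjusted p = 0.0125) among them, and limma-voom 0. An unadjusted p under 0.05 was found with edgeR for 1 of 21 genes for phloem development, 5 of 13 for vein transport, 1 of 4 SUC, 1 of 7 SWEET and 0 of 11 callose synthase genes. The share of all genes was 5.53%. Of the 21 genes for phloem development and sieve elements, 8 had a positive and 13 a negative fold change. ENODL9, an early nodulin-like protein, had 1.22 and 2.08 CPM in the FLV border, against 7.34 and 7.54 CPM in the WT border (log2 fold change -2.17 ± 0.47, adjusted p = 0.34 with edgeR). OPS, a polarity protein of early sieve cells, had 13.1 and 9.30 CPM in the FLV border, against 6.28 and 6.78 CPM in the WT border (0.78 ± 0.47). Of 13 tested genes for companion cells and vein transport, 5 lay above and 3 below without overlap, where the shares of all genes were 19.3% and 18.7%. AAP3, an amino acid permease, had 3.86 and 2.69 CPM in the FLV border, against 0.401 and 0.452 CPM in the WT border (2.93 ± 0.69, adjusted p = 0.397 with edgeR). NPF2.13, a nitrate transporter of minor veins, had 8.08 and 9.0 CPM in the FLV border, against 24.8 and 31.7 CPM in the WT border (-1.72 ± 0.49). OPT3, which loads iron into the phloem, had 30.0 and 36.3 CPM in the FLV border, against 103 and 86.7 CPM in the WT border (-1.52 ± 0.44).

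Among relatives of the loading genes, 4 of 8 SUC genes and 7 of 15 SWEET genes passed the filter. SUC5 had a log2 fold change of -2.01 ± 0.72 and SUC1 of -0.97 ± 0.54 in FLV border against WT border. SUC1 had 28.9 and 27.1 CPM in the FLV border, against 28.7 and 80.7 CPM in the WT border, and its log2 fold change was -0.053 without library 2 of WT border. SWEET2, a vacuolar sugar carrier, had 1.16 and 1.60 CPM in the FLV border, against 5.16 and 3.51 CPM in the WT border (-1.65 ± 0.49), and SWEET4 had -1.47 ± 0.77. All 11 other callose synthase genes were tested and 9 had a positive fold change, with CALS5 at -0.45 ± 0.65 and CALS10 at 0.34 ± 0.51. Markers of other leaf cells had 0 calls with edgeR and limma-voom, with an unadjusted p under 0.05 in edgeR for 1 xylem, 1 bundle sheath, 3 mesophyll and 0 epidermis markers. Of these lists 13, 3, 6 and 6 markers were tested, and the share of all genes under 0.05 was 5.53%. DESeq2 called the bundle sheath marker SULTR2;2 (adjusted p = 0.0193) and 3 mesophyll markers lower, HCEF1 (adjusted p = 0.0446), CA1 (adjusted p = 0.0178) and RBCS1A. The 6 mesophyll markers were all negative with a median of -1.81, HCEF1 at -1.82 ± 0.55 and CA1 at -2.09 ± 0.69, and their summed level was 4991 and 12062 CPM in the FLV border, against 22600.5 and 37059 CPM in the WT border. The 3 bundle sheath markers were negative, with SULTR2;2 at -2.05 ± 0.50 and SCL23 at -0.87 ± 0.44, and summed to 22.3 and 18.9 CPM in the FLV border, against 41.1 and 29.2 CPM in the WT border. The 14 xylem and procambium markers summed to 122 and 103 CPM in the FLV border, against 112 and 109 CPM in the WT border, with WOX4 at 1.91 ± 0.81 and XCP1 at 0.85 ± 0.45. Of the 13 tested, however, 5 had a positive and 8 a negative fold change, with a median of -0.06. The 6 epidermis markers summed to 557 and 411 CPM in the FLV border, against 444 and 387 CPM in the WT border, with CER5 at 0.55 ± 0.46 and ATML1 at 0.54 ± 0.46. Of these 6, 4 were positive and 2 negative, with a median of 0.32. The part of these other leaf cells in the values of the companion cell and loading genes was not tested. In such bulk tissue, fewer cells of a type and less RNA per cell cannot be told apart.

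The second comparison asks how phloem genes differ between the margin and the middle of a wild-type leaf. SEOR2 rose in WT border against WT centre, by a log2 fold change of 1.95 ± 0.45 (edgeR, adjusted p = 0.0442), a fold of 3.87, and was the 1 member called of 9 tested. Its tandem neighbour SEOR1 had 1.62 ± 0.45 (adjusted p = 0.0614). SWEET11, SWEET12 and PP2-A1 had values of the opposite sign, and SUC2 had 0.07 ± 0.56. edgeR called 3.13% of all genes higher and 3% lower. An unadjusted p under 0.05 was found for 5 of the 9 members, against 29.9% of all genes. Without overlap, 3 members were above and 2 below, against 30.6% and 27.2% of all genes. The median log2 fold change was 1.09 for the 4 tested sieve element genes and -0.02 for all genes. For the 4 companion cell and loading genes the median was -1.99. That median was -0.52 without library 1 of WT centre and -0.82 with library totals, where the sieve element median was 2.33.

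SEOR2 had 20.8 and 32.9 CPM in the WT border, against 6.13 and 7.69 CPM in the WT centre. SEOR1 had 33.9 and 50.0 CPM in the WT border, against 11.7 and 15.5 CPM in the WT centre. For both filament genes every WT border library was above every WT centre library, and in counts WT centre held 69 and 112 for SEOR2 and 132 and 225 for SEOR1. The log2 fold change of SEOR2 stayed positive in all 17 alternatives, from 1.39 to 3.22, but it was called in 8 of them (adjusted p 0.00413 to 0.21). It was 1.86 without library 1 of WT centre (adjusted p = 0.0666), 1.39 with the length offset (adjusted p = 0.0943) and 1.94 with the replicate block (adjusted p = 0.051), and each of these ended the call. The call also ended with limma-voom (adjusted p = 0.0562) and when only the 4 libraries of these groups were fitted (adjusted p = 0.083). It ended without FLV border library 1 (2.02, adjusted p = 0.0739) or library 2 (2.01, adjusted p = 0.0718), and without WT border library 1 (2.33, adjusted p = 0.128) or library 2 (1.67, adjusted p = 0.21). SEOR1 was called in 4 of the 17 alternatives, which were library totals, no filter, DESeq2 and the fit without library 2 of WT centre (1.93, adjusted p = 0.0449).

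CALS7 had 1.32 and 2.50 CPM in the WT border, against 1.69 and 1.1 CPM in the WT centre, where it rested on 19 and 16 counts. The groups overlapped, and the log2 fold change was 0.46 ± 0.63. Leaving out WT border library 1 gave 0.93, and leaving out library 2 gave 0.015. NAC045 had 9 and 17 counts in the WT border, against 3 and 3 in the WT centre, and NAC086 had 5 and 16 in the WT border, against 3 and 3 in the WT centre. APL had 6.85 and 9.24 CPM in the WT border, against 6.04 and 5.36 CPM in the WT centre. Both margin libraries were the higher ones, with a log2 fold change of 0.50 ± 0.45 (edgeR, adjusted p = 0.478).

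SUC2 had 87.1 and 178 CPM in the WT border, against 81.6 and 171 CPM in the WT centre. Library 2 was about as far above library 1 in either tissue, and the log2 fold change was 0.07 ± 0.56 (edgeR, adjusted p = 0.942). SWEET11 had 9.69 and 19.6 CPM in the WT border, against 149 and 25.2 CPM in the WT centre (log2 fold change -2.57 ± 0.80, edgeR, adjusted p = 0.0785). SWEET12 had 2.38 and 3.20 CPM in the WT border, against 40.0 and 1.37 CPM in the WT centre (-2.89 ± 1.13, adjusted p = 0.131). Both exporters were far higher in library 1 than in library 2 of WT centre, with 450 against 20 counts for SWEET12. Without library 1 the log2 fold change was -0.73 for SWEET11 and 1.07 for SWEET12. Without library 2 of WT centre it was -3.26 and -3.75, and both were called (adjusted p = 0.0155 and 0.00674). PP2-A1 had 11.9 and 18 CPM in the WT border, against 47.5 and 32.2 CPM in the WT centre. Both margin libraries were below both centre libraries, with -1.42 ± 0.46 (adjusted p = 0.0839) and -1.05 without library 1 of WT centre. DESeq2 called SWEET11, SWEET12 and PP2-A1 lower in the WT border, though SWEET12 overlapped between the groups.

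Ratios between genes of 1 library do not depend on how libraries are scaled, though they do carry any trend on gene length. With the length offset the log2 fold change in WT border against WT centre was 1.05 for SEOR1, 1.39 for SEOR2 and -0.36 for SUC2. Per kilobase, SEOR1 relative to SUC2 was 0.357 and 0.323 in the FLV border, 0.299 and 0.216 in the WT border, and 0.111 and 0.0697 in the WT centre. SEOR2 relative to SUC2 was 0.303 and 0.259 in the FLV border, 0.171 and 0.132 in the WT border, and 0.0538 and 0.0323 in the WT centre. For both genes the 3 groups did not overlap, with FLV border highest and WT centre lowest. The companion cell gene PP2-A1 was also higher in the FLV border than in the WT border relative to SUC2. It had 0.409 and 0.330 in the FLV border, 0.266 and 0.197 in the WT border, and 1.13 and 0.368 in the WT centre. All these ratios share SUC2, which had 72.3 and 73.3 CPM in the FLV border, against 87.1 and 178 CPM in the WT border. CALS7 relative to SUC2 was 0.0156 and 0.0142 in the FLV border, 0.00495 and 0.00459 in the WT border, and 0.00675 and 0.00210 in the WT centre. It stood apart in the FLV border, while WT border and WT centre overlapped. With 2 libraries against 2, an exact two-sided permutation test cannot go below p = 0.333, so no test was run on these ratios.

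SWEET11 relative to SUC2 was 0.0796 and 0.122 in the FLV border, 0.166 and 0.164 in the WT border, and 2.72 and 0.221 in the WT centre. The order of the groups was the reverse of that of the SEOR genes, with no overlap. SWEET12 relative to SUC2 was 0.0230 and 0.0187 in the FLV border, 0.0420 and 0.0276 in the WT border, and 0.753 and 0.0124 in the WT centre, so that library 1 of WT centre was the highest of all and library 2 the lowest. Summed per kilobase, the 5 sieve element genes made up 31.0 and 29.1% of both classes in the FLV border, 24.6 and 20.7% in the WT border, and 3.11 and 6.28% in the WT centre. The sieve element sum itself overlapped between the borders, with 25.1 and 22.7 CPM per kb in the FLV border, against 21.4 and 32.9 in the WT border. SUC2 made up 66.2 and 68.0% of the companion cell and loading sum in the FLV border, and 67.8 and 72.0% in the WT border. SEOR1 and SEOR2 held most of the sieve element sum, with 13.2 and 11.2 of 25.1 CPM per kb in FLV border library 1. In WT centre SWEET11 and SWEET12 made up 61.9% of the companion cell and loading sum in library 1 and 14.6% in library 2. The balance within the tandem pair differed between the libraries. In the FLV border 52.3% of the counts of the pair were from SEOR1 in library 1 (50.5 to 54.0%, exact binomial interval by Clopper-Pearson at the 95% level) and 53.8% in library 2 (51.9 to 55.6%). Its share was 62.0% (59.8 to 64.2%) and 60.4% (58.4 to 62.3%) in the WT border, and 65.7% (58.7 to 72.2%) and 66.8% (61.5 to 71.8%) in the WT centre. These intervals cover counting error only, and the FLV border libraries did not overlap with the others.

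**Figure D3:**
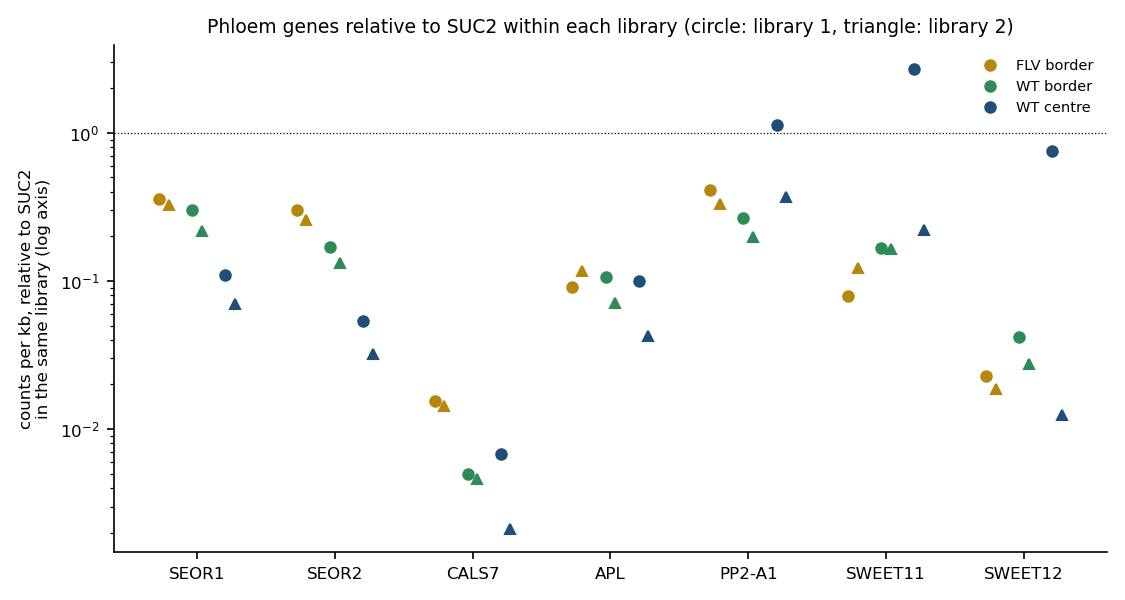
Counts per kilobase of 7 phloem genes relative to SUC2 in the same library (log axis), for FLV border, WT border and WT centre from left to right within each gene. SEOR1 and SEOR2 step down from FLV border to WT centre, SWEET11 steps up, and PP2-A1 is lowest in the WT border. SWEET12 reaches both 0.753 and 0.0124 in the WT centre.

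Among other phloem genes, edgeR called 0 of 21 for development and sieve elements in WT border against WT centre, 16 of them with a positive fold change and a median of 0.69. Of the 21, 9 had an unadjusted p under 0.05, where the share of all genes was 29.9%. limma-voom called 0 and DESeq2 3, of which BAM3 and SMXL3 were higher and RTM1 lower. BAM3, a receptor kinase of the protophloem, had 28.8 and 37.9 CPM in the WT border, against 13.2 and 4.19 CPM in the WT centre (log2 fold change 1.94 ± 0.58, adjusted p = 0.0718 with edgeR). SMXL3, a regulator of phloem formation, had 7.40 and 5.91 CPM in the WT border, against 2.49 and 1.31 CPM in the WT centre (1.82 ± 0.52, adjusted p = 0.0661). Without library 1 of WT centre 3 of the 21 were called, BAM3 at 3.05 (adjusted p = 0.0296), SMXL3 (adjusted p = 0.0425) and CVP2. BAM3 and SMXL3 were also called without the filter, and with library totals they were 2 of 13 called higher. BRX, which acts with OPS in early sieve cells, had 2.75 ± 0.93 on 0.573 and 2.08 CPM in the WT border, against 0.178 and 0.206 CPM in the WT centre.

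Of 13 tested genes for companion cells and vein transport, 3 fell in the WT border, where 3% of all genes were called lower. The amino acid permease gene AAP2 had 2.90 and 0.903 CPM in the WT border, against 31.7 and 92.4 CPM in the WT centre (log2 fold change -5.02 ± 0.78, adjusted p = 0.0282 with edgeR). NPF1.2, a nitrate transporter of companion cells, had 10.6 and 11.2 CPM in the WT border, against 46.0 and 116 CPM in the WT centre (-2.90 ± 0.60, adjusted p = 0.0377). SULTR2;1, a sulfate transporter of the vasculature, had 3.84 and 6.46 CPM in the WT border, against 28.5 and 16.8 CPM in the WT centre (-2.13 ± 0.52, adjusted p = 0.0472). Without library 1 of WT centre AAP2, NPF1.2, CALS12 and CESA4 were still called, while SULTR2;1 had -1.65 (adjusted p = 0.0797). The call of SULTR2;1 also ended with the replicate block (-2.19, adjusted p = 0.0586), limma-voom (adjusted p = 0.0528), no filter (adjusted p = 0.0519) and library totals (-0.93, adjusted p = 0.208). The companion cell proton pump gene AHA3 had the other sign, with 41.1 and 145 CPM in the WT border, against 21.4 and 29.7 CPM in the WT centre. Its log2 fold change was 1.86 ± 0.63 (adjusted p = 0.0941 with edgeR), and DESeq2 called it higher. AKT2, the potassium channel of the phloem, had 6.94 and 9.59 CPM in the WT border, against 6.40 and 3.85 CPM in the WT centre. Transport genes of the companion cell thus lay on both sides of SUC2.

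In the families, edgeR called 1 callose synthase gene, while DESeq2 called CALS3 and CALS12 higher and CALS4 lower. CALS12, the enzyme of wound and pathogen callose, rose by 2.72 ± 0.51 (adjusted p = 0.0318 with edgeR), with 39.9 and 64.3 CPM in the WT border, against 5.95 and 9.82 CPM in the WT centre. CALS4 had -3.34 ± 0.85 (adjusted p = 0.0519 with edgeR), and was also called lower with RLE scaling and without the filter. edgeR and limma-voom called 0 SUC and SWEET genes, of which 0 of 4 and 3 of 7 had an unadjusted p under 0.05 in edgeR, with SUC5 at -0.63 ± 0.69, SUC1 at 0.28 ± 0.54, SWEET2 at -1.85 ± 0.49 and SWEET1 at 1.40 ± 0.50. The share of all genes under 0.05 was 29.9%. SWEET2 was called lower with DESeq2 (-1.93, adjusted p = 0.00495), as was SWEET17, and without library 2 of WT centre (adjusted p = 0.0343). SWEET17 had 6.34 and 8.83 CPM in the WT border, against 7.46 and 63.5 CPM in the WT centre, so that the groups overlapped. It was also called lower without library 1 of WT centre, where that group rested on library 2 alone. SWEET1 (edgeR, adjusted p = 0.00829) and SUC3 were called higher with library totals. Of 13 tested xylem and procambium markers, 11 were positive with a median of 1.24, and the list summed to 112 and 109 CPM in the WT border, against 59.1 and 42.6 CPM in the WT centre. CESA4, a cellulose synthase of secondary walls, rose by 2.31 ± 0.46 (adjusted p = 0.0364 with edgeR), while PXY, a procambium receptor, had 1.71 ± 0.49 and IRX1 1.98 ± 0.58. DESeq2 called CESA4, PXY, IRX1, IRX3 and IRX12 higher. The epidermis markers PDF1 and ATML1 rose by 7.06 ± 0.92 and 2.98 ± 0.50, and the list summed to 444 and 387 CPM in the WT border, against 298 and 335 CPM in the WT centre. Of these 6 markers, 5 were positive and 1 was negative. CUT1 went the other way, with 54.0 and 63.0 CPM in the WT border, against 141 and 195 CPM in the WT centre (-1.52 ± 0.47). DESeq2 called CUT1 lower, and CER5 had 0.04 ± 0.46. Bundle sheath markers summed to 41.1 and 29.2 CPM in the WT border, against 42.2 and 42.0 CPM in the WT centre, with SCR at 1.07 ± 0.45 and SCL23 at -0.94 ± 0.44. Mesophyll markers summed to 22600.5 and 37059 CPM in the WT border, against 31744 and 126636 CPM in the WT centre, with CA1 at -1.27 ± 0.68 and RBCS1A at -1.33 ± 0.76. Of these 6, 5 were negative and HCEF1 was positive, at 0.49 ± 0.53 without overlap, while RCA had -0.21 ± 0.69. DESeq2 called RBCS1A lower. LHCB1.3 and LHCB1.2 had 7101 and 993 CPM in library 1 of WT centre, against 66396 and 30167 CPM in library 2. Leaving out WT border library 1 ended the edgeR calls of the 7 genes outside the 10, and leaving out library 2 those of all but PDF1. Leaving out either FLV border library ended those of NPF1.2, SULTR2;1, CALS12 and CESA4 (adjusted p 0.0509 to 0.0806), as did fitting only the 4 libraries of these groups (adjusted p 0.0519 to 0.065). The length offset ended those of NPF1.2, CALS12, CESA4 and ATML1 (adjusted p 0.0501 to 0.0624). The part of these cell types in the values of the phloem genes was not tested.

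**Figure D4:**
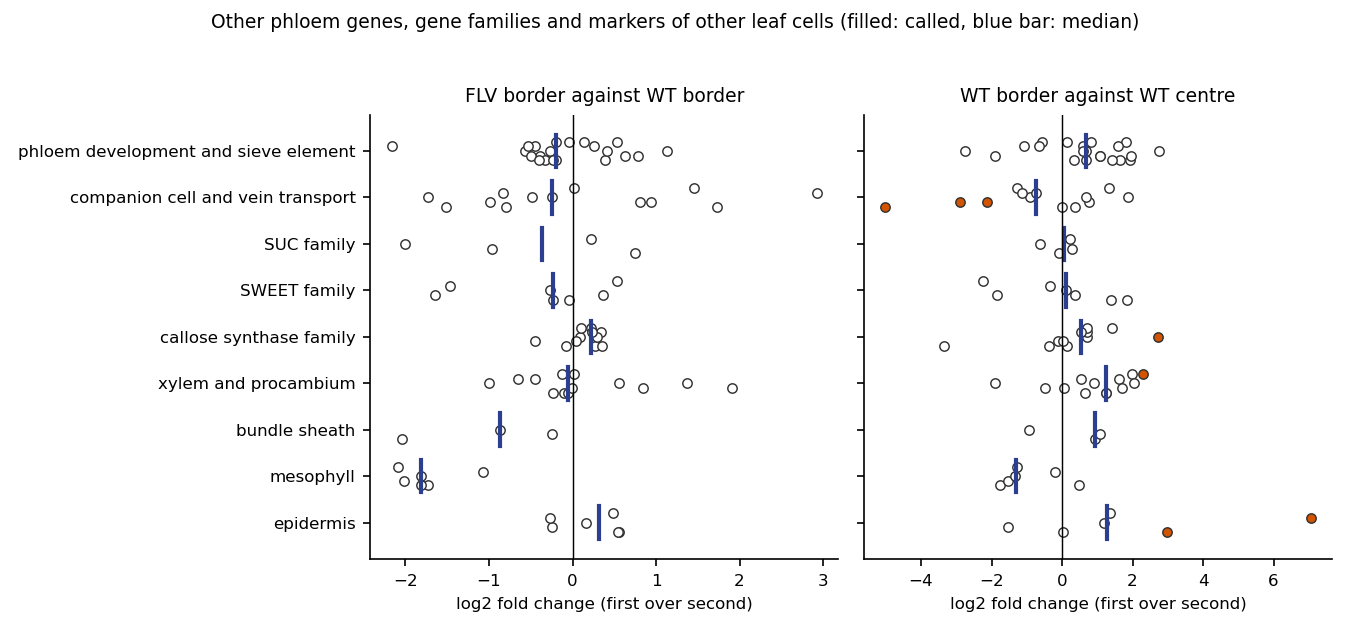
Log2 fold change of each tested gene of 9 further lists, for FLV border against WT border (left) and WT border against WT centre (right), with the list median as a blue bar; filled points are called with edgeR. The left panel has 0 filled points, and the right panel has 3 negative ones for vein transport and positive ones for CALS12, CESA4, PDF1 and ATML1.

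The nuclear genes whose log2(CPM + 1) followed that of SUC2 most closely over the 6 libraries were AT1G51790, AT5G05840 and AT5G61610, with Pearson r of 0.992, 0.982 and 0.978, all of them under 1 CPM on average. For SEOR1 they were AT2G18410, AT3G24670 and AT3G58560, with r of 0.997, 0.993 and 0.992. These are the highest values among 21586 genes over libraries that share their group differences, and serve as a description. SEOR1 and SEOR2 had r = 0.963 with each other, and SWEET11 and SWEET12 had r = 0.902.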

How the data were processed

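The authors deposited 1 table of raw counts per library, which per the file headers a program named sam2pkm wrote together with the length of each gene model. The submitters' processing notes name the TAIR10 build. The aligner, the use of strand and the treatment of reads with several positions are not given in the sources used here.

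After 15 rRNA loci were dropped, filterByExpr chose the genes to test and TMM scaled the libraries. edgeR 4.0.16 then fitted its quasi-likelihood model (robust=TRUE) over the 6 libraries, with a mean for each group and 3 residual degrees of freedom. P-values are two-sided and Benjamini-Hochberg adjusted over all 21852 genes tested, and a gene is called at an adjusted p under 0.05. The error printed after each log2 fold change is the model's standard error. CPM are counts per 1000000 after TMM scaling, and levels of different genes are compared as CPM per kilobase of the deposited length. The procedure was tested on simulated data.

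The 10 loci and 9 further lists (phloem development, companion cell and vein transport, the SUC, SWEET and callose synthase families, xylem, bundle sheath, mesophyll and epidermis) were chosen with earlier results of these data known. Of each further list, the text names the called genes, up to 6, or else the 2 genes with the smallest p. OPT3, AHA3, AKT2, BRX, PXY, IRX1, IRX3, IRX12, CALS3, CALS4 and RTM1 are named outside this rule, after their values were seen. The same holds for CVP2, SWEET17, SUC3, CUT1, RCA, LHCB1.2 and LHCB1.3, and for CER5 and HCEF1 in WT border against WT centre. Alternatives changed the scaling (RLE, TMM from nuclear genes, library totals), dropped the filter, kept the rRNA loci, fitted only the 4 libraries of a comparison, added a replicate block, omitted a library at a time, or set robust=FALSE. DESeq2 1.42.0, limma-voom (limma 3.58.1) and a correction for trends on gene length were the others. Promoter windows and near copies (BLASTN 2.17.0) were read from the RefSeq copy of TAIR10.1.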

Additional observations from a re-analysis of the deposited data

How the results depend on the processing

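In FLV border against WT border 0 members were called under all 17 alternatives. In WT border against WT centre, where 1 was called, 3 were called with library totals, 2 without the filter, 5 with DESeq2, and 0 with only the 4 libraries compared, the replicate block, limma-voom and the length offset. Leaving out each library gave 0 to 4. The cause was not tested.

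Library totals moved the median of all genes by 0.541 (log2) in FLV border against WT border and by 1.25 in WT border against WT centre, and the calls there to 7448 higher and 350 lower, against 683 and 656. With them PP2-A1 was at 0.44, SEOR1 at 0.17, APL at 0.021, CALS5 at 0.092 and the sieve element median at 0.41 in FLV border against WT border, and SCL23 at 0.32, CA1 at 0.046 and SUC5 at 0.68 in WT border against WT centre, all of the other sign.

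When libraries were left out in turn, values of these results changed sign. In FLV border against WT border PP2-A1 ranged from -0.38 to 0.20, NAC086 from -1.46 to 0.47, SEOR2 from -0.20 to 0.44 and the sieve element median from -0.64 to 0.46. In WT border against WT centre SUC2 ranged from -0.46 to 0.79, NAC086 from -0.61 to 1.31, SUC1 from -0.57 to 0.92, SUC5 from -1.08 to 0.26 and SWEET12 from -3.75 to 1.07. SUC2 was also at -0.027 with RLE scaling and with DESeq2, at -0.038 with only the 4 libraries and at -0.36 with the length offset, where SUC1 was at -0.13.

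Over all genes, WT border against WT centre had 1339 calls, 4167 with DESeq2, 262 with the length offset, 337 with only the 4 libraries, and 1 to 3260 when a library was left out. FLV border against WT border had 13 calls, 194 with DESeq2, 23 without the filter, 2 with the length offset, 0 with the replicate block and 0 to 29 when a library was left out. Libraries of the same number shared deviations with a correlation of 0.458 between the borders, 0.0566 between FLV border and WT centre and 0.110 between the WT tissues. The labels give only the number, so whether these libraries were paired is not known, and the main fit did not pair them. With the replicate block SEOR2 was at 1.94 (edgeR, adjusted p = 0.051) in WT border against WT centre, where 1080 genes were called. Depth limits NAC045 and NAC086, at 3 to 17 counts per library.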
